A study of Mus musculus with 4 samples.

Results

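Lymphatic endothelial spots were 263 of the 6119 spots under tissue (4.30%) in a spatial transcriptomic survey of mouse popliteal lymph nodes (PLNs), the nodes that drain the hindpaw and ankle. A Visium array captures RNA from a tissue section on a grid of barcoded spots, each wider than a cell, and unique molecular identifiers (UMIs) let every captured molecule be counted a single time. Spots with at least 1000 UMIs were ranked on each capture area by the share of their UMIs that came from 6 genes of lymphatic endothelium, namely Prox1, Flt4, Mmrn1, Reln, Lyve1 and Stab2. Before the ranking, the 15% of spots with the highest share of 8 macrophage genes (C1qa, C1qb, C1qc, Cd5l, Cd209b, Siglec1, Cd163 and Mrc1) were set aside as macrophage-rich spots, 309 in all. The 15% of deep spots with the highest lymphatic score among the remainder were the lymphatic endothelial spots. The 1485 spots left over are called the other spots. The WT area had 35 members, the Early area 77, Advanced area 1 74 and Advanced area 2 77.

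All mice were male C57BL/6. The WT area held 10 PLNs of 5 wild-type mice aged 5.5 months. The Early area held 6 PLNs of 3 TNF-Tg mice aged 5.5 months with early arthritis, and each of the 2 Advanced areas held 6 PLNs of 3 TNF-Tg mice aged 8.5 to 9 months with advanced arthritis. TNF-Tg mice carry a human TNF transgene and develop a progressive inflammatory-erosive arthritis. Only males were used because TNF-Tg females die early, and arthritis in this line can differ between the limbs of a mouse. Evan's blue dye was injected into the hindpaw of every mouse to find the nodes, and each area carried a single section of its own nodes. No table used here assigns spots to single nodes or mice. Advanced mice were also older than the others, so that age and stage of arthritis cannot be told apart, nor can group and capture area for WT and Early, which had 1 area each.

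Lymph enters a node through afferent vessels into the subcapsular sinus, runs along the cortical sinuses and leaves through the medullary sinuses. Lymphatic endothelial cells line all of these spaces. They differ between the ceiling and the floor of the subcapsular sinus and between the subcapsular and medullary sinuses, where macrophages sit in the lumen and against the sinus wall. Prox1 is the transcription factor that sets lymphatic identity and Flt4 is VEGFR3, the receptor for the growth factor Vegfc. Mmrn1 encodes a secreted multimerin and Reln the matrix protein reelin. Lyve1 and Stab2 are receptors that bind hyaluronan, and Lyve1 is also made by some tissue macrophages.

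The areas held between 1808678 and 5180493 UMIs over 833 to 2015 spots, and 2057 spots (33.6%) reached 1000 UMIs. Depth followed position: a spot was counted as lying at a tissue edge when fewer than 6 of its neighbouring array positions were under tissue, and edge spots were 33.2% to 69.2% of the spots with at least 1000 UMIs, against 8.57% to 11.4% of the shallower ones. Members were deeper than the other spots by their median on the Early area and shallower on the remaining 3. In area order (WT, Early, Advanced 1, Advanced 2) their median UMIs were 2881, 5424, 2402.5 and 2071, against 3501, 4961.5, 3149 and 3263 in the other spots. Of 3110 distinct spot barcodes, 249 occurred on all 4 areas, because the barcodes mark array positions rather than cells.

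The 6 score genes chose the members, and their levels are given as a description. They lie on chromosomes 1 (Prox1, 190118035 to 190170714, minus strand), 11 (Flt4, 49609263 to 49652739, plus strand), 6 (Mmrn1, 60924976 to 60989378, plus strand), 5 (Reln, 21884454 to 22344702, minus strand), 7 (Lyve1, 110850607 to 110863239, minus strand) and 10 (Stab2, 86841198 to 87008025, minus strand) of GRCm38. In the same area order, they together took 16.03, 10.5, 12.3 and 16.5 of every 10000 UMIs in members. The other spots gave 5.04, 2.19, 3.10 and 4.06, and the macrophage-rich spots 14.2, 9.09, 7.08 and 12.8. The spots that had been set aside thus also carried the lymphatic genes, at a level below that of the members and above that of the other spots on every area. The lowest member and the highest other spot lay side by side on the score, at 12.1 and 12.0 per 10000 UMIs for WT, 6.32 and 6.32 for Early, 8.81 and 8.80 for Advanced area 1, and 12.2 and 12.2 for Advanced area 2.

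Flt4 took 2.54 ± 0.481 of every 10000 UMIs in members (SD, n = 4 areas), against 0.667 ± 0.221 in the other spots. Prox1 took 0.498 ± 0.206 against 0.150 ± 0.0172 on the same scale, with its highest member level, 0.788, on Advanced area 1. For Mmrn1 the values were 1.49 ± 0.451 and 0.428 ± 0.232, and for Reln 0.856 ± 0.233 and 0.266 ± 0.153. All 6 genes took a larger share of UMIs in the members than in the other spots on every area, as the rule requires of their sum but not of each gene. The hyaluronan receptors Lyve1 and Stab2 took 4.33 ± 1.28 and 4.13 ± 0.975 of every 10000 UMIs in members, against 1.13 ± 0.361 and 0.957 ± 0.280 in the other spots.

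**Figure D1:**
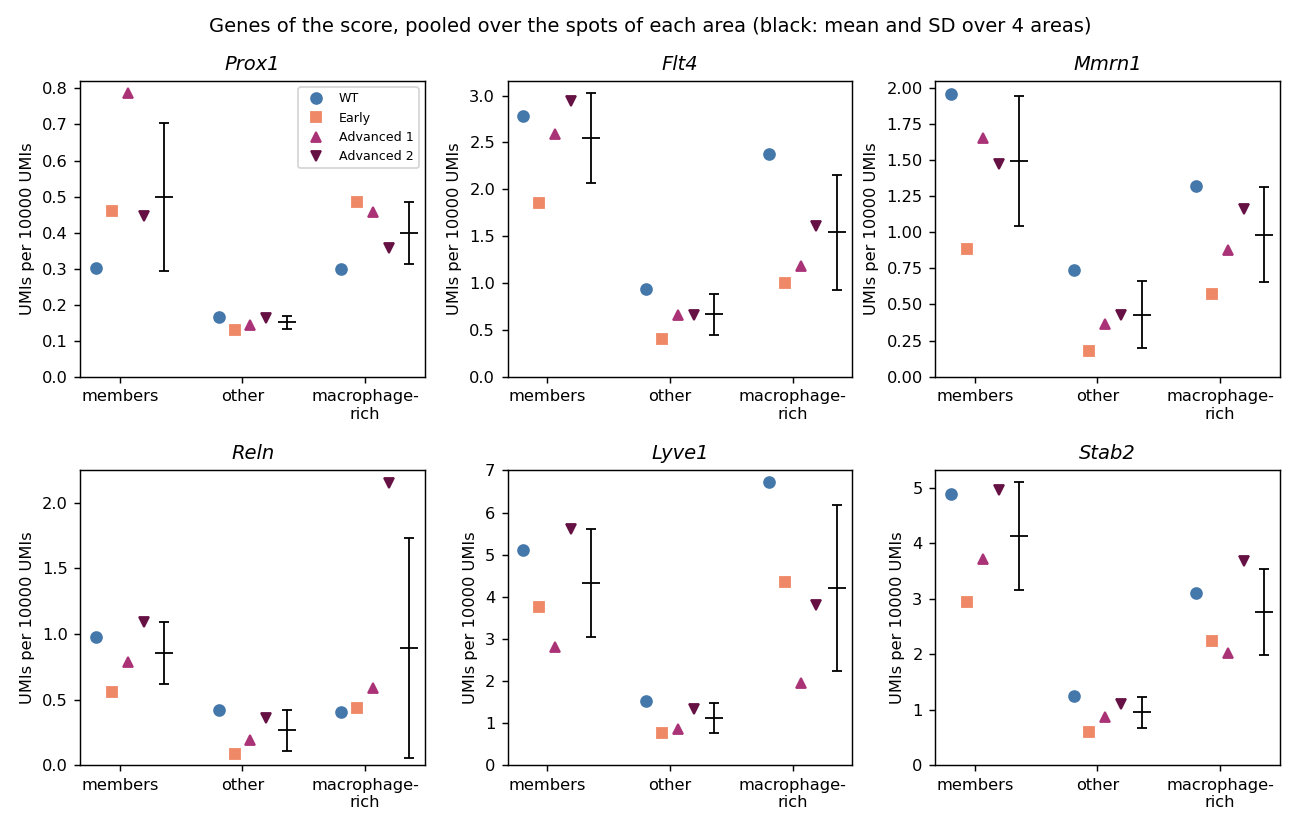
Levels of the 6 score genes per 10000 UMIs by capture area in the lymphatic endothelial spots, the other spots and the macrophage-rich spots, with 1 point per area and the mean and SD over the 4 areas in black. Lyve1 took 4.33 of every 10000 UMIs in members by the mean over areas, 1.13 in other spots and 4.20 in macrophage-rich spots, while Flt4 took 2.54, 0.667 and 1.54.

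Few molecules stood behind each single spot. The median member held 5 score UMIs on both the WT and Early areas and 3 and 4 on the Advanced areas, and the range over all members was 1 to 59. In 14 members the score rested on 1 UMI, and 73 members had under 3. At least 2 of the 6 genes were detected in 216 members (82.1%) and at least 3 in 134. Stab2 was detected in 70.3% of members, Lyve1 in 65.8%, Flt4 in 58.9%, Mmrn1 in 34.6%, Reln in 28.1% and Prox1 in 17.9%. The corresponding shares of other spots were 30.1%, 28.7%, 23.6%, 13.9%, 10.5% and 7.74%. These shares depend on depth and are not corrected for it.

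Whether the score picked out lymphatic endothelium was examined by leaving out each marker in turn, choosing members again with the remaining 5, and testing the left-out marker. UMIs were summed per area and class of spot, and members were compared with other spots by edgeR's quasi-likelihood test with the area as a block and Benjamini-Hochberg adjustment over all genes tested. In such sums more cells of a type and more RNA per cell cannot be told apart. Each of the 6 left-out markers was higher in members on 4 of 4 areas and had an adjusted p under 0.05 in this test, where the genes called higher were 2.23% of those tested with Prox1 left out, 1.87% with Flt4, 1.65% with Mmrn1, 1.88% with Reln, 1.46% with Lyve1 and 1.37% with Stab2. Stab2 took 3.16, 2.12, 2.04 and 3.15 of every 10000 UMIs in members on the WT, Early, Advanced 1 and Advanced 2 areas, against 1.48, 0.734, 1.07 and 1.35 in the other spots (log2 difference 1.21, SE 0.15, adjusted p = 3.26e-07). Flt4 took 1.98, 1.52, 1.29 and 1.69 in members and 1.02, 0.456, 0.819 and 0.812 in other spots (log2 difference 1.15, SE 0.17, adjusted p = 6.17e-06). The members did not overlap the other spots for either gene. Both kept an adjusted p under 0.05 when any single area was left out.

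The 4 remaining markers lost their call when certain single areas were left out. Prox1 had a log2 difference of 1.24 (SE 0.31, adjusted p = 0.00667 by the same edgeR test) on only 4, 20, 12 and 13 member UMIs, Mmrn1 of 1.08 (SE 0.22, adjusted p = 0.00251), Reln of 1.101 (SE 0.28, adjusted p = 0.0182) and Lyve1 of 0.81 (SE 0.17, adjusted p = 0.00517). Lyve1 took 2.27, 2.82, 1.13 and 3.18 of every 10000 UMIs in members on the 4 areas, against 1.85, 0.955, 1.06 and 1.72 in other spots, so that the Early area showed the widest gap and Advanced area 1 nearly none. Without the Early area the log2 difference was 1.29 for Prox1 (adjusted p = 0.0822 by edgeR), 0.75 for Mmrn1 (0.220), 0.64 for Reln (0.509) and 0.45 for Lyve1 (0.337). Without Advanced area 2 the adjusted p by edgeR was 0.113 for Prox1 and 0.0972 for Lyve1. Without Advanced area 1 it was 0.0531 for Prox1, whose log2 difference stayed between 1.16 and 1.30 whichever area was left out. In interior spots alone, which have tissue at all 6 neighbouring positions, the adjusted p was 0.182 for Flt4, 0.318 for Mmrn1, 0.624 for Reln, 0.307 for Lyve1 and 0.133 for Stab2. The marker test thus passed for all spots and did not pass for these 5 markers in the interior of the nodes alone.

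**Figure D2:**
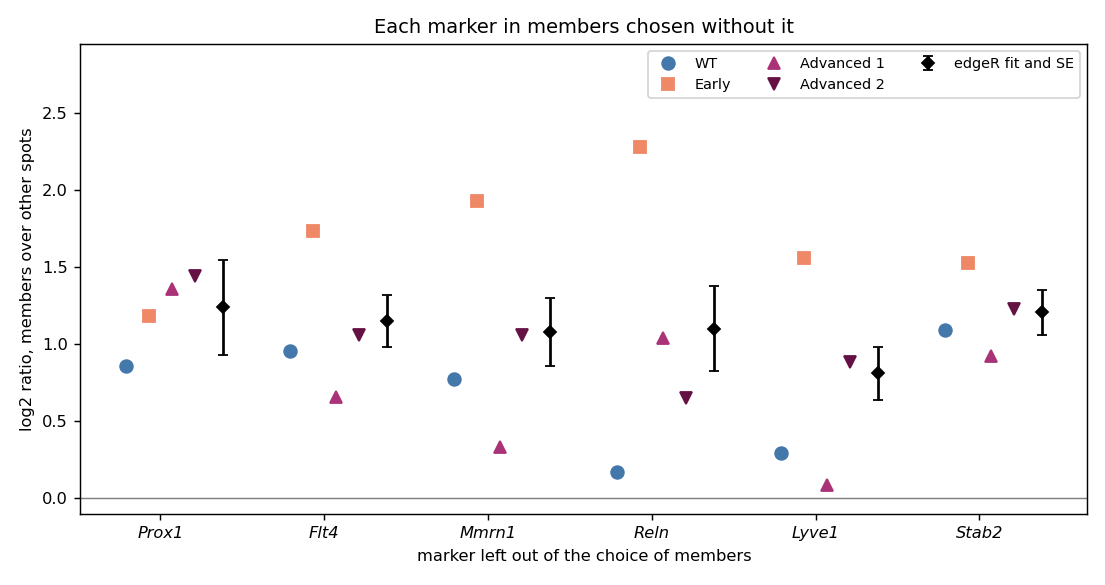
Log2 ratio of each lymphatic marker between members and other spots on each capture area, with members chosen by the remaining 5 markers, and the edgeR estimate with its standard error in black. Every point lies above 0, which marks equal levels, and Lyve1 on Advanced area 1 lies nearest to it.

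Members were split by which score genes they carried. By their own score UMIs, 211 members carried more Lyve1 and Stab2 than Mmrn1 and Reln, and 23 carried more Mmrn1 and Reln. Of 2047 genes tested between these 2 kinds, edgeR called 0 (0%) at an adjusted p under 0.05, with 100 at an unadjusted p under 0.05, and DESeq2 called 0, with 57 unadjusted. Csf1, the growth factor of macrophages that is made by the floor of the subcapsular sinus, was among the 5 largest differences on its side with at least 100 UMIs. It took 1.56, 1.80, 2.07 and 1.66 of every 10000 UMIs in the Lyve1 and Stab2 kind on the 4 areas, against 1.28, 0.464, 0.248 and 0 in the other kind (log2 difference 2.44, SE 0.76, adjusted p = 0.574 by edgeR). The second kind had 2 to 12 spots per area, so few that the comparison does not show whether the kinds were alike.

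Members touched macrophage-rich spots and members more often than the other spots did. A macrophage-rich spot was a direct neighbour of 51.4%, 39.0%, 47.3% and 41.6% of members on the WT, Early and Advanced areas, against 11.2%, 22.6%, 32.1% and 18.6% of the other spots. The difference was 23.7 ± 11.5 percentage points (SD, n = 4 areas, p = 0.125 by a two-sided exact sign-flip permutation test, the smallest that 4 areas allow). Another member was a neighbour of 42.9%, 68.8%, 50% and 66.2% of members, and some member was a neighbour of 18.8%, 22.6%, 30.9% and 27.1% of other spots (difference 32.2 ± 12.7 percentage points, n = 4 areas, p = 0.125 by the same exact test). Both differences had the same direction on 4 of 4 areas. Spots at a tissue edge have fewer neighbours, and these shares were not corrected for that.

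Position at the tissue edge differed between the areas. Of the members, 71.4% lay at an edge in WT, 48.1% in Early, and 23.0% and 22.1% in the Advanced areas, while the shares of the other spots were 66.5%, 68.0%, 38.3% and 54.8%. Members were thus less often at an edge than other spots on 3 of 4 areas (mean difference -15.8 ± 15.6 percentage points, p = 0.25 by the exact sign-flip permutation test), and the difference was within the spread of the areas. In all, 96 members lay at an edge and 167 in the interior.

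**Figure D3:**
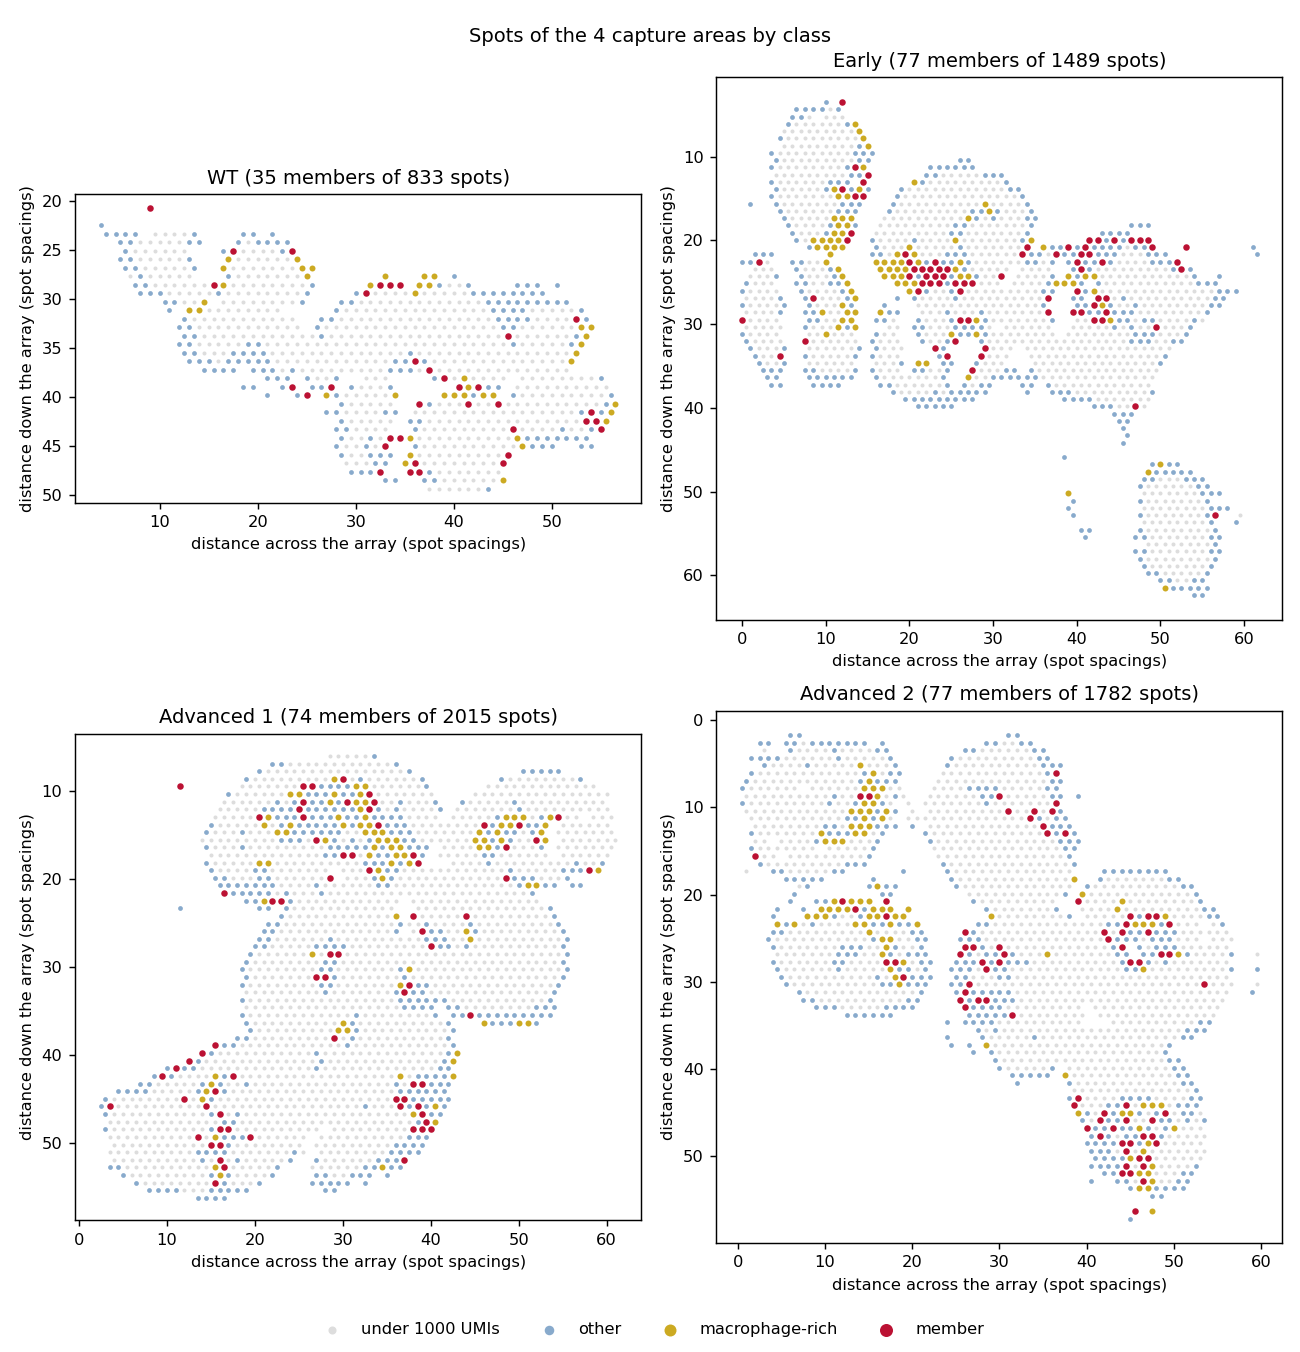
Array positions of the spots on the 4 capture areas, coloured as lymphatic endothelial spots, macrophage-rich spots, other spots with at least 1000 UMIs and spots below that depth, with axes in spot spacings along the array. Members form runs beside macrophage-rich spots, and 51.4%, 39.0%, 47.3% and 41.6% of them touch one on the WT, Early, Advanced 1 and Advanced 2 areas.

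Members carried more RNA of lymphatic and blood endothelial genes, of macrophage genes and of several immunoglobulin heavy chain genes than the other spots, and less RNA of B cell and globin genes. The test covered the 10353 genes with enough UMIs and left out the 14 genes used by the rule. The edgeR test called 356 genes (3.44%) at an adjusted p under 0.05, 204 higher in members (1.97%) and 152 lower (1.47%). The median log2 difference of all genes was -0.00. DESeq2 called 159, all of them among the 356. Leaving out the Early area left 113 calls and leaving out Advanced area 2 left 123, of which 102 and 118 were among the 356. Interior spots alone gave 10 calls.

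Lymphatic endothelial genes outside the score were higher in members. Of 15 measured, 8 rose and 0 fell, with a median log2 difference of 0.81 and 15 of 15 above 0. By the mean over areas, the 16 listed genes took 25.8 of every 10000 UMIs in members, 18.5 in other spots and 22.7 in macrophage-rich spots. Stab1, a scavenger receptor related to Stab2, took 3.99, 2.66, 2.18 and 3.01 of every 10000 UMIs in members on the WT, Early, Advanced 1 and Advanced 2 areas, against 1.60, 0.955, 1.54 and 1.54 in other spots (log2 difference 1.07, SE 0.15). Nr2f2 (COUP-TFII), the nuclear receptor that works with Prox1 in lymphatic fate, took 2.26, 1.53, 1.99 and 1.68 against 1.16, 0.587, 1.06 and 0.970 (1.02, SE 0.16). Members and other spots did not overlap for either gene. Sox18, the factor that switches on Prox1, rose by 1.02 (SE 0.22), and Tbx1, a T-box factor of lymphatic development, rose by 1.01 (SE 0.19) with its highest member level, 2.41, on the WT area.

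The remaining called genes of this list were Itga9, an integrin of lymphatic valves (0.88 on the log2 scale), Timp3, an inhibitor of metalloproteinases (0.84), Clca3a1, a surface protein of lymphatic endothelium (0.82), and Fxyd6 (0.81). Maf (0.58, adjusted p = 0.0542 by edgeR) and Cavin2 (0.75, adjusted p = 0.0607) did not pass. Ccl21a, the chemokine that draws T cells and dendritic cells into the node and that reticular cells also make, took 11.1, 5.48, 11.4 and 12.2 of every 10000 UMIs in members and 15.4, 4.32, 9.62 and 9.38 in other spots (log2 difference 0.13, SE 0.11, adjusted p = 0.677 by edgeR). Its reads may be split with near-identical Ccl21 copies. The number of called genes in the list was 4 without the Early area, 5 without Advanced area 2, 6 without the WT area and 8 without Advanced area 1. In interior spots 0 of 12 were called, with a median of 0.48.

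Macrophage genes outside the filter moved with these lymphatic genes. Of 15 measured, 10 rose and 0 fell in members, with a median log2 difference of 0.79. The 16 listed genes summed to between 114 and 162 of every 10000 UMIs in members over the areas and between 75.4 and 111 in other spots, and Vsig4 was at 0 in the members. The ferroportin gene Slc40a1 rose by 1.24, Adgre1 (F4/80) by 1.20, the folate receptor Folr2 by 0.97, the haem-degrading Hmox1 by 0.83 and Timd4, a receptor for dying cells, by 0.80. The 8 filter genes themselves summed to 41.9, 23.5, 15.6 and 25.4 per 10000 UMIs in members on the 4 areas, against 23.8, 9.64, 11.3 and 14.03 in other spots, so that macrophage RNA was still present in the members after the filter. Its part in the differences of other genes was not tested. Called macrophage genes numbered 7 without the Early area and 6 without Advanced area 2.

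**Figure D4:**
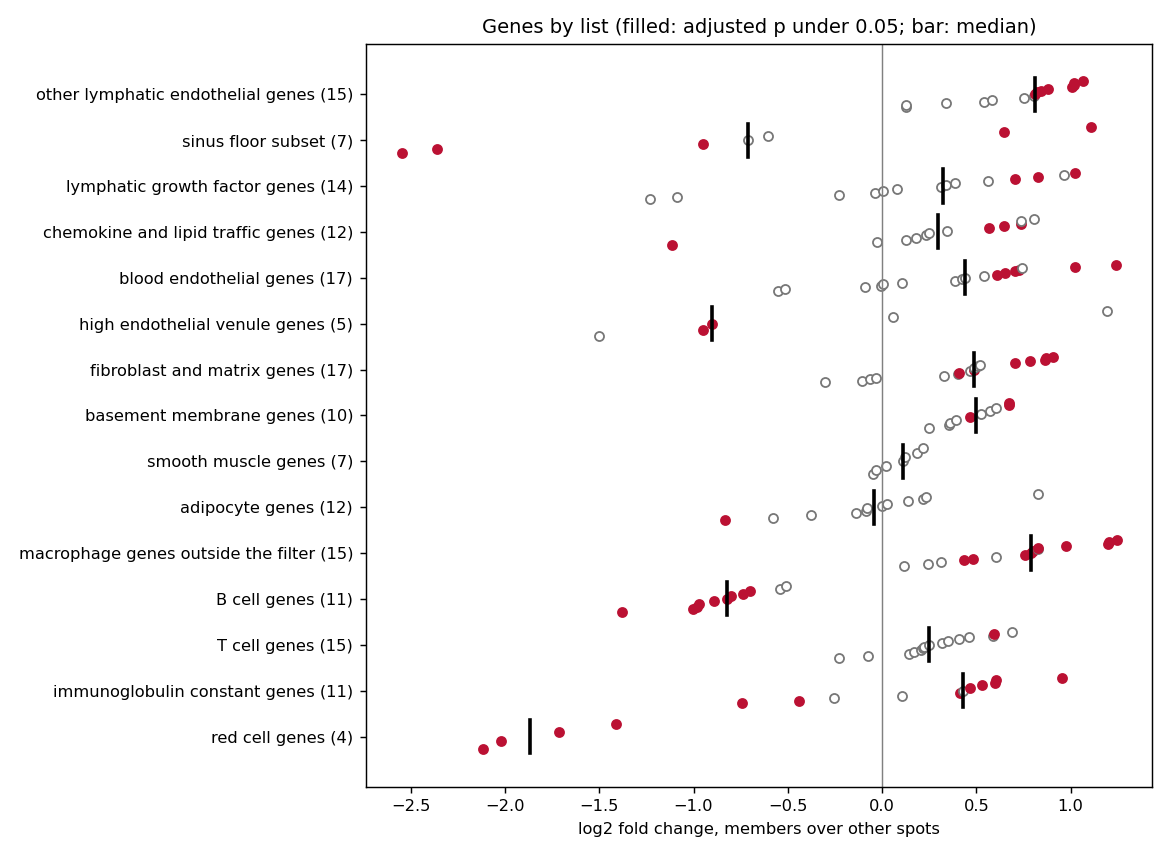
Log2 difference between members and other spots for the measured genes of each list, with filled points for genes at an adjusted p under 0.05 and a bar at the median of each list. The 15 other lymphatic endothelial genes have a median of 0.81, the 11 B cell genes of -0.82 and the 4 red cell genes of -1.87.

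Genes that divide the sinus endothelium into subsets did not move together. Of the 7 genes of the sinus floor, 2 rose and 3 fell, with a median log2 difference of -0.71. The integrin gene Itga2b (CD41) took 2.79, 3.05, 1.61 and 2.19 of every 10000 UMIs in members on the 4 areas and 1.07, 1.03, 1.14 and 1.17 in other spots (log2 difference 1.11, SE 0.16). Csf1 took 1.58, 1.74, 1.69 and 1.61 against 0.848, 1.16, 0.989 and 1.12 (0.65, SE 0.15). Both were higher in members on all areas without overlap.

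The floor genes Coch, Ccl20 and Madcam1 went the other way. Coch, which encodes cochlin, took 0.0753, 0.170, 0.225 and 0.103 of every 10000 UMIs in members, against 0.304, 1.32, 0.548 and 0.844 in other spots (log2 difference -2.55, SE 0.30). Ccl20, the chemokine that binds Ccr6, took 0.0753, 0.272, 0.188 and 0.0342 against 0.231, 1.55, 0.445 and 0.485 (-2.36, SE 0.30). Madcam1, the mucosal addressin that is shared with high endothelial venules, fell by 0.95 (SE 0.25). Coch and Ccl20 were also among the 10 largest falls by size, and each level in members on the WT area was that of 1 UMI. Called floor genes were 1 higher and 2 lower without either the Early area or Advanced area 2.

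Of the 3 genes of the Marco-positive medullary subset, 2 rose. Marco, a scavenger receptor of medullary sinus endothelium and of sinus macrophages, took 33.1, 29.1, 20.5 and 25.4 of every 10000 UMIs in members on the 4 areas, against 14.98, 8.76, 10.7 and 12.4 in other spots (log2 difference 1.20, SE 0.10, adjusted p = 4.16e-10 by edgeR). The second was Stab1, and both were called whichever area was left out. The lectin gene Clec4g was higher by 1.04 but did not pass (adjusted p = 0.353). None of 3 measured ceiling genes and none of 2 measured genes of the Ptx3 subset was called (0 of 3 and 0 of 2 by edgeR). In the valve and collecting vessel list 1 of 5 was called, the integrin Itga9 already named. Foxc2, Ackr4 and Ptx3 had too few UMIs to be tested.

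Of 14 measured genes of the lymphatic growth factor pathways, 3 rose and 0 fell, with a median log2 difference of 0.33. Kdr (VEGFR2) took 1.88, 1.43, 1.39 and 1.61 of every 10000 UMIs in members on the 4 areas and 0.701, 0.590, 0.873 and 0.895 in other spots (1.02, SE 0.17). Ramp2, the subunit that makes the adrenomedullin receptor, rose by 0.83 and the receptor kinase Tie1 by 0.70. The ligand Vegfd had too few UMIs to be tested, and Adamts3, which helps to activate Vegfc, was at 0 in the members.

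In the list of chemokines and lipid traffic, 3 of 12 genes rose and 1 fell (median 0.30). Cxcl12, the ligand of Cxcr4, took 20.6, 15.7, 19.4 and 19.7 of every 10000 UMIs in members, against 14.6, 6.18, 14.8 and 11.8 in other spots (log2 difference 0.74, SE 0.11). Spns2, the transporter through which lymphatic endothelium releases sphingosine 1-phosphate, rose by 0.57 (SE 0.16) and was higher on 3 of 4 areas, and Csf1 is also in this list. Cxcl13, the follicle chemokine that draws B cells, took 2.63, 14.7, 5.51 and 4.24 in members and 4.602, 28.6, 13.04 and 10.5 in other spots (-1.11, SE 0.11). Members were lower in Cxcl13 than the other spots of the same area on 4 of 4 areas, although its level varied widely between areas. Sphk1 was not tested for low counts.

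Some blood endothelial genes were also higher. Of 17 measured, 6 rose and 0 fell (median log2 difference 0.44). Cldn5, the claudin of endothelial tight junctions, took 5.42, 2.50, 3.71 and 2.84 of every 10000 UMIs in members on the 4 areas, against 2.60, 0.755, 1.62 and 1.45 in other spots (1.24, SE 0.14). Kdr and Tie1 belong to this list too, followed by Robo4 (0.72), the fenestral diaphragm gene Plvap (0.65) and Egfl7 (0.61). Several of these genes, such as Cldn5 and Kdr, are made by lymphatic and blood endothelium alike, and the sources cannot be told apart in these sums. Nitric oxide synthase 3 (Nos3), which belongs to none of the lists, rose by 1.36 (SE 0.38).

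High endothelial venules, the vessels through which lymphocytes enter from blood, were not richer in the members. Of their 5 measured genes 0 rose and 2 fell (median -0.90), Madcam1 and Glycam1. Glycam1, a ligand of L-selectin, took 2.41, 5.50, 8.55 and 1.47 of every 10000 UMIs in members and 2.82, 10.2, 12.1 and 5.68 in other spots (log2 difference -0.90, SE 0.15). Called genes were 0 higher and 1 lower without the Early area or without Advanced area 2.

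Genes of the connective tissue around the sinuses were higher in 7 of 17 fibroblast and matrix genes and 3 of 10 basement membrane genes, with medians of 0.49 and 0.50. The called matrix genes were the collagens Col5a1 (0.91) and Col6a2 (0.78), the small proteoglycans Lum (0.87) and Dcn (0.49), Dpt (0.87), the mural receptor Pdgfrb (0.70) and Gsn (0.41). The basement membrane genes were perlecan (Hspg2, 0.68), Col4a2 (0.67) and Sparc (0.47). Without the Early area 0 of either list passed, and without Advanced area 2 1 of the first list and 0 of the second did, while the log2 difference of Lum was 0.68 and 0.78, of Col5a1 0.95 and 0.998, and of Hspg2 0.40 and 0.63, respectively. None of 7 smooth muscle genes was called (median 0.11), and the single measured gene of the nerve and skeletal muscle list was not called, with Acta1, Ckm and Myh4 at 0 in the members. Among 12 adipocyte genes only Scd1 was called, lower by 0.83.

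B cell genes were lower in members. Of 11 measured, 0 rose and 9 fell, with a median log2 difference of -0.82. Cr2 (CD21), the complement receptor of follicular dendritic cells and B cells, took 0.452, 1.38, 1.09 and 0.616 of every 10000 UMIs in members on the 4 areas, against 0.636, 3.85, 2.29 and 2.08 in other spots (-1.38, SE 0.17). Cd79a, a chain of the B cell receptor complex, took 4.06, 6.84, 7.09 and 4.14 against 7.82, 14.5, 10.03 and 11.2 (-1.003, SE 0.12). Ms4a1 (CD20) fell by 0.98. Members were lower than the other spots on every area for each of these genes. The number of called genes was 7 without the Early area and without Advanced area 2.

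Immunoglobulin constant genes went in the opposite direction to the other B cell genes, with 6 of 11 higher and 2 lower (median 0.43). Ighg3 took 13.1, 23.8, 15.3 and 28.9 of every 10000 UMIs in members and 8.05, 11.4, 7.99 and 13.3 in other spots (log2 difference 0.95, SE 0.10). Ighg2c rose by 0.61, Ighg2b by 0.60, Ighm by 0.47 and Igkc by 0.41. Ighd, the isotype of naive B cells, fell by 0.74 and Iglc3 by 0.44. Among 7 measured plasma cell genes, Jchain alone was called (0.57), and it was higher on 3 of 4 areas. Immunoglobulin genes share sequence, and reads may be split between them. Without either the Early area or Advanced area 2 the counts were 3 higher and 1 lower.

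Of 15 T cell genes 1 was called (Cd4, 0.59, a gene that macrophages and dendritic cells can also express). Of the 15, 13 were above 0, with a median of 0.25. The list summed to 15.4, 12.4, 14.7 and 16.02 of every 10000 UMIs in members on the 4 areas. Other spots gave 17.7, 9.17, 10.8 and 12.2, so that members were lower on the WT area and higher on the 3 TNF-Tg areas. Among 9 dendritic cell genes Clec9a was called (1.36, higher on 3 of 4 areas), and among 13 interferon and TNF response genes Ccl2 (1.23, higher on 3 of 4 areas). Ccl2, which draws monocytes, took 0.151, 2.66, 0.713 and 3.35 of every 10000 UMIs in members, against 0.682, 0.695, 0.557 and 1.13 in other spots. It was lower in members on the WT area and higher on the 3 TNF-Tg areas. None of 11 neutrophil and mast cell genes was called.

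The 4 measured red cell genes all fell, with a median of -1.87. Hba-a1, an alpha globin gene, took 0.226, 1.07, 0.638 and 0.103 of every 10000 UMIs in members and 0.627, 2.98, 2.41 and 3.27 in other spots (log2 difference -2.12, SE 0.23), and Hbb-bs (-2.02), Hbb-bt (-1.72) and Hba-a2 (-1.41) followed. The paired globin genes are near-identical copies. In interior spots alone edgeR called 0 of the 4, with a median of -0.22, and at the tissue edge it called 4 of 4 lower.

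By size, the 10 largest rises with the same direction on every area and at least 100 UMIs were Ccdc152 (1.84), Cxcl5 (1.79), Gpm6a (1.57), Tanc2 (1.49), Adgrg3 (1.49), Ntn4 (1.43), Grik5 (1.42), Tslp (1.37), Nos3 (1.36) and Kcnj16 (1.35). Cxcl5, a chemokine for neutrophils, took 0.376, 0.868, 0.263 and 0.924 of every 10000 UMIs in members and 0.0646, 0.235, 0.192 and 0.187 in other spots. Tslp is an epithelial cytokine that acts on dendritic cells, and Ntn4 a netrin of vascular basement membranes. Ccdc152 overlaps the selenoprotein P gene Selenop on the opposite strand of chromosome 15, from 3280070 to 3280508 only. It is not stated here how strand was used in counting, so reads from that shared stretch may not be told apart.

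Among the 10 largest falls were Hamp (-2.66), Coch, Ccl20, Hba-a1, Gm39556 (-2.08), Hbb-bs, Nek8 (-1.97), Hbb-bt and Fam167a (-1.63). Hamp, which encodes the iron hormone hepcidin, took 0, 0.136, 0.113 and 0.0342 of every 10000 UMIs in members and 0.00922, 1.26, 0.209 and 0.0746 in other spots. Its level was highest on the Early area in both kinds of spot. The WT levels of 0 and 0.00922 and the member level of 0.0342 on Advanced area 2 lie near the limit of counting.

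Against the macrophage-rich spots, members carried more Ccl21a and more immunoglobulin RNA and less RNA of macrophage, mast cell protease and globin genes. Of 8721 genes tested, edgeR called 169 (1.94%), 47 higher in members (0.539%) and 122 lower (1.4%), while DESeq2 called 59. Without the Early area 30 were called, without the WT area 82 and without Advanced area 1 112. Of 15 lymphatic endothelial genes outside the score 1 was higher and 0 lower (median -0.18, against 0.00 for all genes), and of 16 blood endothelial genes 0 were called by edgeR. A p that misses the threshold does not show that the levels were equal.

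Ccl21a was the lymphatic gene that differed. It took 11.1, 5.48, 11.4 and 12.2 of every 10000 UMIs in members on the 4 areas and 4.83, 2.44, 7.25 and 8.40 in macrophage-rich spots (log2 difference 0.85, SE 0.13, adjusted p = 1.69e-05 by edgeR), and it was called whichever area was left out. Ccl19, the second ligand of Ccr7, was higher by 0.51 (SE 0.14) and Cxcl12 by 0.45 (SE 0.12). The T cell genes Trbc2 and Cd8b1 were higher by 0.56 and 0.79 and Cd4 was lower by -0.70 on the log2 scale. By size, the rises also included Tfrc (1.32), the cortisone-activating Hsd11b1 (1.26), and the matrix genes Mgp (1.08), Fmod (0.99), Sfrp2 (0.98), Col6a2 (0.85) and Ltbp4 (0.79), besides Sun2 (0.81) and Plekhg2 (0.80). The complement factor D gene Cfd, made by fat cells, had a log2 difference of 1.36 and was higher on 3 of 4 areas. Its direction depended on the spots used, with -0.99 in interior spots alone and -1.73 without adipocyte-rich spots.

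Of 11 immunoglobulin constant genes, 9 were higher in members than in macrophage-rich spots and 1 lower. Ighg2b took 225, 80.7, 116 and 345 of every 10000 UMIs in members and 197, 34.5, 99.4 and 128 in macrophage-rich spots (log2 difference 0.74, SE 0.15). Ighm (0.70) and Ighg3 (0.63) were higher as well, and Ighg1 was lower (-0.65, but 0.22 in interior spots alone). Without the Early area none of the 11 was called (0 by edgeR).

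On the lower side, 10 of 15 macrophage genes outside the filter were called, which is not independent of a rule that moved macrophage-rich spots out. Hmox1 differed by -1.87, Folr2 by -1.35, Marco by -1.17 and Timd4 by -0.91 on the log2 scale. By size, the falls also included the monocyte chemokine gene Ccl12 (-1.50), Aoah (-1.60), Adamts1 (-1.47) and the Fc receptor gene Fcgr1 (-1.42), and the 4 globin genes (median -2.19). The mast cell protease genes Tpsb2 (-1.03), Cma1 (-0.91) and Mcpt4 (-0.70) were lower in members too, although none of the mast cell genes differed between members and the other spots in a test that passed.

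Members of the Advanced areas carried more Ighg1 and Ighg2b and less Cxcl13 and Saa3 than members of the Early area, and no lymphatic endothelial gene passed the test. The comparison asked how the sinuses differ between the stages of arthritis. It was made with all 4 areas in 1 fit that has 1 residual degree of freedom, from the 2 Advanced areas. Spread was shared over genes by edgeR, so small SEs and p-values here do not show how little a single gene varied between areas. Of 7171 genes tested, edgeR called 5 (0.0697%) between Advanced and Early, 2 higher (0.0279%) and 3 lower (0.0418%) in Advanced, with 238 at an unadjusted p under 0.05, and DESeq2 called 1. None of 14 lymphatic endothelial genes outside the score was called (0 by edgeR, median log2 difference -0.06, against 0.02 for all genes).

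Both higher genes encode IgG heavy chains. Ighg1 took 3.85 of every 10000 UMIs in members on the Early area and 21.4 and 32.7 on the Advanced areas (log2 difference 2.77, SE 0.30, adjusted p = 2.67e-16 by edgeR), and 61.9 on the WT area. The other spots showed the same order, with 3.38 on the Early area, 10.7 and 15.6 on the Advanced areas and 88.2 on the WT area. Ighg2b took 80.7 on the Early area, 116 and 345 on the Advanced areas (1.49, SE 0.21, adjusted p = 1.28e-08) and 225 on the WT area. For Ighg2b the gap between Advanced area 1 and the Early area was narrower than that between the Advanced areas, and the log2 difference was 0.41 without Advanced area 2. The other spots also carried more Ighg2b per 10000 UMIs on both Advanced areas and on the WT area than on the Early area.

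Of the lower genes, Cxcl13 took 14.7 of every 10000 UMIs in members on the Early area, 5.51 and 4.24 on the Advanced areas and 2.63 on the WT area (Advanced against Early -1.65, SE 0.30, adjusted p = 7.91e-05 by edgeR). In the other spots Cxcl13 took 28.6, 13.04 and 10.5 on the same TNF-Tg areas. Saa3, an acute-phase gene induced by inflammation, took 7.42 on the Early area, 2.59 and 2.64 on the Advanced areas and 0.376 on the WT area (-1.56, SE 0.33, adjusted p = 0.00388). Car3, a carbonic anhydrase of fat and muscle, took 2.03 on the Early area, 0.600 and 0.513 on the Advanced areas and 1.43 on the WT area (-1.91, SE 0.41, adjusted p = 0.00533). In the other spots Car3 took 0.574 on the Early area and 1.93 and 2.21 on the Advanced areas, the opposite order. The direction for Car3 in members depended on how they were chosen, since its log2 difference was 0.13 with the top 10% of spots, 0.63 with macrophage-rich spots kept and 1.31 with equal weights for the 6 genes. Ranking spots within bins of depth before taking the members left 0 of the 5 calls.

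The next largest differences by size with at least 100 UMIs did not pass in the edgeR test. They were Lat (1.24, adjusted p = 0.662), Safb (1.11, adjusted p = 0.751) and Kcnn4 (1.101, adjusted p = 0.992) on the higher side, and Angptl4 (-1.57, adjusted p = 0.234) and Ms4a6c (-1.44, adjusted p = 0.321) on the lower side.

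Against the WT members, Advanced members carried more Lyz1 and less Slpi and Ccl8, and, with macrophage-rich spots left out, more Ccl2 and Saa3. In this comparison, which shares the Advanced areas with the previous one, edgeR called 17 of 7171 genes (0.237%), 3 higher (0.0418%) and 14 lower (0.195%) in Advanced, with 445 unadjusted, and DESeq2 called 1. Without the Early area in the fit 0 were called. The lymphatic list had 0 of 14 called (median -0.35, against 0.06 for all genes). Ccl2 rose by 3.72 (SE 0.76, adjusted p = 0.00102 by edgeR), from 2 member UMIs on the WT area (0.151 per 10000) to 0.713 and 3.35 per 10000 on the Advanced areas. Saa3 rose by 2.75 (SE 0.59), from 5 member UMIs on the WT area. Lyz1 is a lysozyme gene that shares sequence with Lyz2. It took 0.677 of every 10000 UMIs in members on the WT area and 4.58 and 2.53 on the Advanced areas (2.33, SE 0.52). The lower end of these 3 rises rested on 2, 5 and 9 UMIs in the WT members. With macrophage-rich spots kept in the ranking, the log2 difference was 0.022 for Ccl2 and -0.093 for Saa3, and for Ccl2 it was 1.05 with the top 20% of spots and 0.74 within depth bins.

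Slpi, a secreted inhibitor of leukocyte proteases, took 49.0 of every 10000 UMIs in WT members, 1.75 in Early members and 2.66 and 2.60 on the Advanced areas (-4.25, SE 0.29, adjusted p = 1.7e-43 by edgeR). The other spots gave 51.0, 0.917, 3.21 and 1.43, so that Slpi was high over the whole WT area and not in its members alone. The chemokine gene Ccl8 took 29.7 on the WT area and 5.33 and 12.7 on the Advanced areas (-1.73, SE 0.27). Lower values were also called for Gm42418 (-1.77), Lrg1 (-1.71), Cfd (-1.63), Ighg1 (-1.22) and Selenop (-1.06). Of these, Cfd was at 1.16 with the top 10% of spots and 1.21 with macrophage-rich spots kept, and Ighg1 at 0.014 in edge spots alone, on the higher side.

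Adipocyte genes were higher in members than in other spots on the Early area and lower in members on both Advanced areas. Whether the difference between members and other spots changed with stage was tested by an interaction term. Of 11202 genes, edgeR called 10 (0.0893%), with 526 unadjusted, and DESeq2 called 1. All 10 edgeR calls had a lower log2 ratio of members over other spots in Advanced than in Early. None of 15 lymphatic genes outside the score was among them (0 by edgeR, median -0.53, against -0.02 for all genes). Of 12 measured adipocyte genes 8 were called (median -2.55). Car3 took 2.03 of every 10000 UMIs in members and 0.574 in other spots on the Early area, but 0.600 and 0.513 in members against 1.93 and 2.21 in other spots on the Advanced areas (change -3.71, SE 0.38, adjusted p = 2.69e-07). For Cfd the levels were 4.26 and 1.57 on the Early area, and 3.53 and 1.095 in members against 4.76 and 5.02 in other spots on the Advanced areas (-2.61, SE 0.37, adjusted p = 0.000215). Lpl (-2.48), Cidec (-3.63), Adipoq (-2.87), Retn (-3.32), Fabp4 (-1.41) and Cyp2e1 (-2.99) showed the same order. The largest fitted changes, of Thrsp (-6.71) and Pck1 (-5.31), rested on 0 and 1 member UMIs of Thrsp and 0 and 2 of Pck1 on the Advanced areas, so their size is poorly fixed.

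Summed over the list, adipocyte genes took 20.1 of every 10000 UMIs in members on both the WT and the Early area, and 14.1 and 11.7 on the Advanced areas. In the other spots the list took 19.3 in WT, 11.3 in Early, and 22.7 and 27.3 on the Advanced areas. This pattern depended on how members were chosen: with the top 10% of spots, with the macrophage-rich spots kept, with equal weights for the 6 genes, in interior spots alone, or after dropping adipocyte-rich spots, 0 of the 10 genes were among the calls. Of the 5 genes called between Advanced and Early members, Car3 alone was also called here, and the other 4 had adjusted p between 0.636 and 0.999 for the change.

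**Figure D5:**
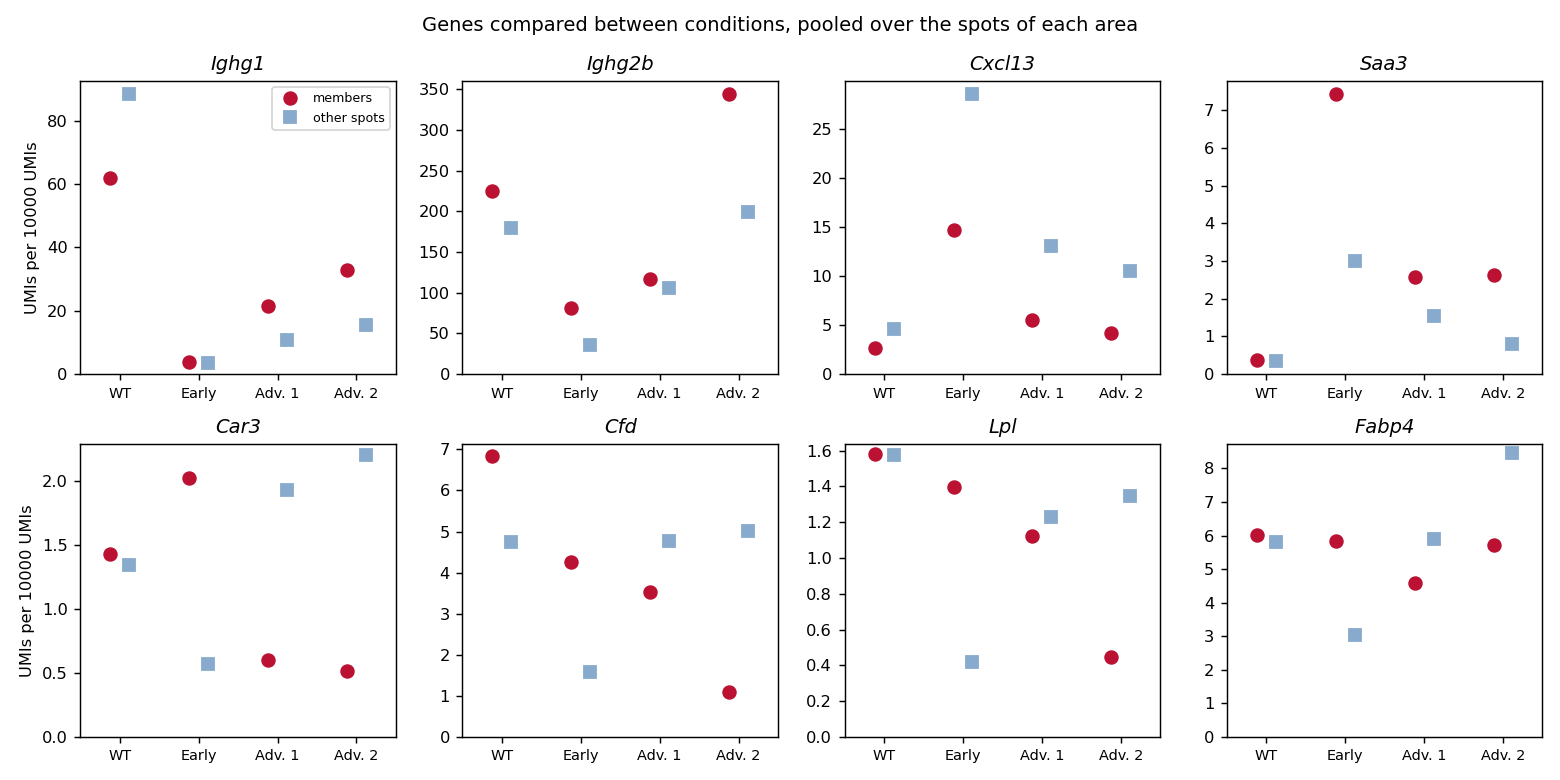
Levels per 10000 UMIs by capture area in members and other spots for genes called between stages, with 1 point per area and kind of spot on linear axes. Ighg1 and Cxcl13 follow the same order over the areas in both kinds of spot, while Car3 is higher in members on the Early area (2.03 against 0.574) and lower on both Advanced areas.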

How the data were processed

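UMIs were measured per gene and spot on 4 Visium capture areas. The authors ran Space Ranger 1.1.0 against GRCm38 (mm10) to obtain the deposited counts, and the submitters' processing notes also name Seurat 4.0.3 and R 4.1.1. The deposited counts are unnormalized UMIs for 32287 features of spots under tissue. Barcode and position files gave the spot coordinates. How Space Ranger used strand is not given in the sources used here.

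Members were chosen by the rule given in the report, and UMIs were summed per area and class of spot. The 8 sums of a paired comparison were fitted with area as a block in edgeR 4.0.16 (R 4.3.3), with TMM scaling, a filter on low counts with a minimum count of 10 and the quasi-likelihood test. Standard errors were the log2 difference divided by the square root of its F. Spots were never treated as replicates. Condition comparisons used the 4 member sums, and the change of the member difference used 8 sums. The PLNs of several mice were pooled on each area, so no p-value measures the spread between mice. In paired comparisons the p-values rest on how the difference between the classes of spot varied between areas. In comparisons between conditions the only residual spread was that between the Advanced areas. WT and Early gave none, having a single area each. edgeR shares spread over genes, so the SE or p-value of a single gene there does not measure that gene's own spread between areas. DESeq2 1.42.0, other depth minimums, shares, weights and spot subsets and each area left out in turn served as alternatives, and requiring 3 score UMIs per member was added after the data were seen. The test was checked on simulated data.

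The members and the 26 gene lists (253 genes) were chosen with earlier results of these data known. Genes named by size were up to 10 per direction with an adjusted p under 0.05, the same direction in every area and at least 100 UMIs, or the 5 largest where fewer than 5 passed. 1 gene named by this rule is not reported here. Gene positions are from GENCODE M21. Where a symbol belonged to more than 1 feature, the feature with the most UMIs was used. Counting error limits single spots. Deeper areas, the Early area above all, give smaller counting error.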

Additional observations from a re-analysis of the deposited data

Results flagged for a closer look

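The difference between members and other spots changed between the Early and Advanced areas for 10 genes by the edgeR interaction test. The changes, as Advanced minus Early on the log2 scale, were -6.71 for Thrsp (SE 0.95), -5.31 for Pck1 (SE 0.95), -3.71 for Car3 (SE 0.38), -3.63 for Cidec (SE 0.54), -3.32 for Retn (SE 0.63), -2.99 for Cyp2e1 (SE 0.56), -2.87 for Adipoq (SE 0.60), -2.61 for Cfd (SE 0.37), -2.48 for Lpl (SE 0.42) and -1.41 for Fabp4 (SE 0.27). All 10 were higher in members on the Early area and lower on both Advanced areas, and 8 of them belong to the adipocyte list. The sizes for Thrsp and Pck1 rested on very few member UMIs on the Advanced areas. All 10 calls were lost with the top 10% of spots, with macrophage-rich spots kept, with equal weights, in interior spots alone or without adipocyte-rich spots. Only 4 of the 10 genes kept their direction in every alternative that gave a value. The share of members at a tissue edge was 48.1% on the Early area and 23.0% and 22.1% on the Advanced areas, against 68.0%, 38.3% and 54.8% of other spots, and its part in the change was not tested.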

How the results depend on the processing

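Of 74 genes named between members and other spots, 72 kept their direction in every alternative that gave a value, as did 31 of 33 against the macrophage-rich spots, 9 of 10 between Advanced and Early, 9 of 12 between Advanced and WT and 4 of 10 for the change of the member difference. The neighbour and edge shares also kept their direction. Calls between members and other spots numbered 740 with macrophage-rich spots kept, 10 in interior spots, 159 by DESeq2 and 113 to 393 with 1 area left out. Against macrophage-rich spots they numbered 276 with the top 20% of spots, 291 with equal gene weights, 87 at the tissue edge, 47 in the interior, 59 by DESeq2 and 30 to 156 with 1 area left out. Between the kinds of member they numbered 2 with a minimum of 500 or 2000 UMIs and within depth bins, 1 with the top 20%, without adipocyte-rich spots or with at least 3 score UMIs (the last chosen after the data were seen), 3 with equal weights or at the edge, 5 without a filter on low counts and 0 to 3 with 1 area left out. Interior spots gave no fit for this comparison.

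The replicate block of the members' comparisons is the capture area, since both sums come from the same section. Without it, calls between members and other spots numbered 5 and against macrophage-rich spots 0 by edgeR (618 unadjusted), and the left-out markers differed by 1.24 for Prox1, 1.07 for Flt4, 0.91 for Mmrn1, 0.90 for Reln, 0.77 for Lyve1 and 1.15 for Stab2, none past the threshold. No paired analysis was possible because WT and Early have 1 area each for the comparisons between conditions, and for those neither single area could be left out of its own comparison. Leaving out an Advanced area leaves no residual degree of freedom, so those values carry no test.

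The remaining left-out marker values that lost their call were, for Prox1, 1.04 with the top 10% or equal weights, 1.30 at the edge and 1.26 by DESeq2, with a range of 1.16 to 1.30 with 1 area left out. For Reln they were 1.02 with the top 10%, 1.01 at the edge and 1.09 by DESeq2, with a range of 0.64 to 1.32. In the interior Flt4 differed by 0.79, Mmrn1 by 0.94, Reln by 0.83, Lyve1 by 0.64 and Stab2 by 0.69, and with 1 area left out Mmrn1 ranged from 0.75 to 1.29 and Lyve1 from 0.45 to 0.98. The cause was not tested.

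Between Advanced and Early members, calls numbered 11 with 2000 UMIs, 10 with the top 10%, 22 with macrophage-rich spots kept, 12 with equal weights, 2 at the edge, 3 in the interior and 1 by DESeq2, and 0 within depth bins, without adipocyte-rich spots or without a filter on low counts. Between Advanced and WT they numbered 9 with the top 10%, 107 with macrophage-rich spots kept, 1 within depth bins, 11 with equal weights, 7 at the edge, 10 in the interior, 4 without adipocyte-rich spots, 1 by DESeq2, 0 without a filter and 0 without the Early area. For the change of the member difference they numbered 3 with the top 10%, 2 with macrophage-rich spots kept or without adipocyte-rich spots, 6 with equal weights, 5 in the interior and 1 by DESeq2.

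Reversed values were few in the comparisons between classes of spot. They were more common for the change of the member difference, where 4 of 10 genes kept their direction in every alternative that gave a value. Between members and other spots Ccl21a was at -0.13 with macrophage-rich spots kept and -0.23 in the interior, and Hba-a2 at 0.045 in the interior. Against macrophage-rich spots Ighg1 was at 0.22 in the interior and Cfd at -0.99 in the interior and -1.73 without adipocyte-rich spots. Between Advanced and Early Car3 was at 0.13 with the top 10%, 0.63 with macrophage-rich spots kept and 1.31 with equal weights. Between Advanced and WT Cfd was at 1.16 with the top 10% and 1.21 with macrophage-rich spots kept, Saa3 at -0.093 in the latter, and Ighg1 at 0.014 at the edge. For the change, Cidec was at 0.21 and Adipoq at 0.45 with the top 10%, Adipoq at 0.50, Car3 at 0.10, Cyp2e1 at 0.51 and Cfd at 0.55 with equal weights, and Car3 at 0.093 and Retn at 4.05 without adipocyte-rich spots. Few score UMIs per spot and 1 area each for WT and Early limit every comparison.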
